A study of Homo sapiens with 6 samples.

Results

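The HOX cluster genes were examined in chromatin immunoprecipitation sequencing (ChIP-seq) of the human cell line MDA-MB-231, which was established from a triple-negative breast cancer. Members were the protein-coding genes of GENCODE release 44 whose symbols are HOXA, HOXB, HOXC or HOXD followed by a number, which gave 39 genes in 4 clusters out of 19970 protein-coding genes on the 23 chromosomes that carried peaks. The trimethylated form of histone H3 lysine 27 (H3K27me3) was profiled in cells transduced with lentivirus for 24 h and selected for 72 h in puromycin at 2 µg/ml, and the virus carried either a control short hairpin RNA (control shRNA) or a hairpin against E2F1 (shE2F1). Binding of the transcription factor E2F1 was measured without treatment, after 72 h in the solvent DMSO, and after 72 h in 1 µM GSK126, which inhibits the methyltransferase EZH2. Each of these 5 conditions was 1 library of the same cell line, an input of untreated cells was not used here, and no value in the peak lists measures the level of E2F1 after shE2F1 or of H3K27me3 after GSK126.

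HOX genes encode homeodomain transcription factors that set position along the body axis, and within each cluster they are ordered from low-numbered anterior to high-numbered posterior paralogs. Polycomb repressive complex 2, whose catalytic subunit is EZH2, writes H3K27me3, and silent HOX clusters are among the classic broad domains of this mark. E2F1 drives genes of the cell cycle and DNA replication.

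The lists of all peaks set the scale for the HOX values. The control shRNA list held 123957 H3K27me3 peaks over 4.92% of the genome, and the shE2F1 list held 135683 peaks over 6.14%. E2F1 gave 1056 peaks without treatment, 15703 with DMSO and 14276 with GSK126. The genome-wide background recovered from the peak values was 0.668, 1.82 and 1.70 fragments per base position, which made the untreated library the shallowest of the E2F1 libraries by this measure. The control library used in calling each list is not given in the sources used here, and the recovered backgrounds and the depth scaling rest on it. The depth of the H3K27me3 libraries was not recovered here. Of 10 genes that nearly all cells express, chosen as a check, 3 carried an H3K27me3 peak at a promoter in control shRNA and 8 did in shE2F1, so a peak in these lists also occurred at genes that are usually active. E2F1 summits lay at promoters of 2, 9 and 9 of these 10 genes in the untreated, DMSO and GSK126 libraries. The part of such calls in the HOX values was not tested.

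The HOX promoters carried H3K27me3 peaks no more often than promoters in general, and the number did not differ between the hairpins. Promoters reached 1000 bp to each side of any transcription start site (TSS) of a gene, and a peak overlapping such a window by at least 1 bp was counted. In control shRNA 10 of 39 HOX genes had a peak (25.6%, exact 95% interval 13.04% to 42.1%), against 27.1% of all protein-coding genes. In shE2F1 10 of 39 had a peak, the same 25.6%, against 51.2% of all. The share of all genes thus stood much higher in the shE2F1 list, whereas the HOX share was equal in both. Neighbouring HOX genes can share a peak, so the 39 genes are not independent and the intervals, which cover counting error only, are too narrow. When the midpoint of the peak had to lie in the promoter, 3 HOX genes were left in each library, against 23.2% and 46.4% of all genes, and where −log10 q had to reach 2 it was 5 and 4, against 14.6% and 28.9%.

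**Figure D1:**
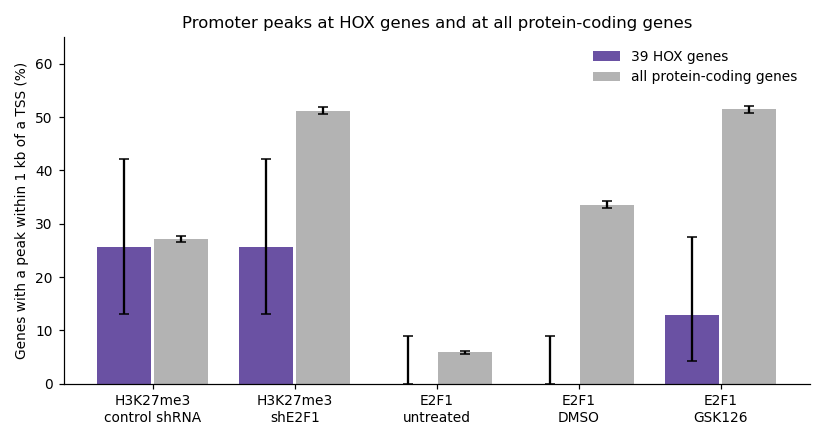
Percent of genes with a peak within 1 kb of a TSS (y axis) in each of the 5 libraries (x axis), for the 39 HOX genes and for all 19970 protein-coding genes, with exact 95% intervals as error bars. The HOX bars are at 25.6% in both H3K27me3 libraries, while the bars for all genes stand at 27.1% and 51.2%, and only the GSK126 library has a HOX bar above 0 for E2F1.

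The same genes accounted for most of both counts. The 8 HOX genes with a promoter peak in both libraries were HOXA10, HOXB7, HOXB13, HOXC4, HOXC11, HOXC12, HOXC13 and HOXD13, which is 20.5% (9.30% to 36.5%) against 25.2% of all genes. Only HOXC6 and HOXC10 had a peak in shE2F1 and none in control shRNA, a share of 5.13% (0.627% to 17.3%) against 26% of all genes. Only HOXA9 and HOXD10 had a peak in control shRNA and none in shE2F1, against 1.94% of all genes. The other 27 HOX genes had no promoter peak in either library, which is 69.2% (52.4% to 83.0%) against 46.9% of all genes.

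The marked genes were mostly posterior. Of the 16 genes of paralog groups 9 to 13, 8 had a promoter peak in control shRNA and 7 in shE2F1. Of all protein-coding genes 27.1% and 51.2% did, so in shE2F1 the posterior share was below that of all genes. Of the 15 central genes of groups 4 to 8, 2 and 3 did. None of the 8 anterior genes of groups 1 to 3, which pattern the hindbrain and neck region in the embryo, had a peak in either library. By cluster, HOXC held the most, with 4 of 9 genes in control shRNA and 6 of 9 in shE2F1, while HOXA had 2 and 1 of 11, HOXB 2 and 2 of 10, and HOXD 2 and 1 of 9.

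**Figure D2:**
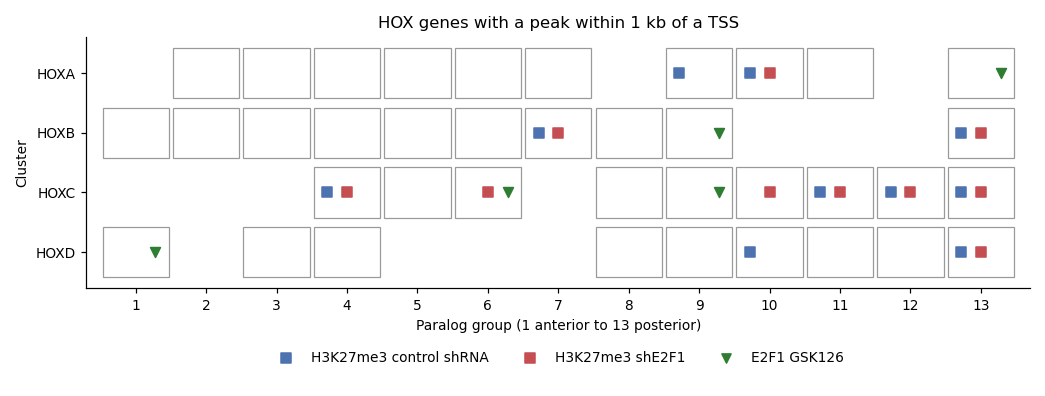
Each box is a HOX gene (38 of the 39 are drawn), placed by its paralog group (x axis) and its cluster (y axis), and a symbol in a box marks a peak at a promoter in the named library. H3K27me3 symbols lie mostly in groups 9 to 13 and in the HOXC row, and the 5 genes with an E2F1 symbol in GSK126 share a box with H3K27me3 only at HOXC6.

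HOXC13, the first gene of the HOXC cluster and a regulator of hair follicle keratins, was the most widely covered HOX gene. Its promoter overlapped control shRNA peaks at chr12:53935471-53938389 and chr12:53939650-53940814 (hg38), with fold enrichments over background of 3.34 and 3.29 and −log10 q of 2.04 and 2.02. In shE2F1 the peaks at this promoter lay at chr12:53933697-53937926 and chr12:53938977-53942749, with folds of 3.08 and 3.07 and −log10 q of 1.94 and 1.97. The gene body from chr12:53938831 to 53946544 was under peaks for 52.6% of its length in control shRNA and 86.6% in shE2F1. The peaks were thus of like fold in both libraries and longer in shE2F1. The strongest control shRNA peak of all clusters lay in an intron of this gene, at chr12:53941947-53942846, where fold was 4.45 and −log10 q was 3.50.

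The neighbouring HOXC12 and HOXC11, posterior genes of the same cluster, also had peaks in both libraries, but at shifted positions. The HOXC12 promoter was touched by chr12:53955725-53956326 in control shRNA (fold 3.05, −log10 q 1.70) and by chr12:53952401-53954161 in shE2F1 (fold 3.25, −log10 q 2.36). The shE2F1 library had its strongest HOX peak just downstream, in a coding exon of HOXC12 at chr12:53956130-53956659, where fold was 4.23 and −log10 q was 4.15. At HOXC11 the control shRNA peak chr12:53973117-53973537 (fold 3.33, −log10 q 2.16) covered 21.0% of the promoter. The shE2F1 peak chr12:53970456-53973338 (fold 3.23, −log10 q 2.26) covered 60.6%. This was the only HOX promoter of the canonical transcript that was covered over at least 50% of its bases in either library.

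At the other end of the cluster HOXC4, a gene also used in lymphoid cells, had 2 promoter peaks in each library. In control shRNA these were long, at chr12:54038608-54045175 (6568 bp, fold 3.22, −log10 q 2.05) and chr12:54046863-54053147 (6285 bp, fold 3.44, −log10 q 2.204). In shE2F1 they were short, at chr12:54037479-54037680 (fold 2.73, −log10 q 1.36) and chr12:54054001-54055169 (fold 2.78, −log10 q 1.48). None of the short peaks overlapped the long ones, and the stretch between them still carried shE2F1 peaks, so the body of HOXC4 was covered over 34.9% and 27.5% of its length. The genes called only in shE2F1 were weakly called. HOXC6 had a peak at chr12:54027322-54027733 (fold 2.64, −log10 q 1.11) and HOXC10 at chr12:53987361-53987696 (fold 2.73, −log10 q 1.501).

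HOXD13, the digit gene at the posterior end of HOXD, was marked upstream in both libraries. The peaks were chr2:176089472-176092208 in control shRNA (fold 3.34, −log10 q 2.19) and chr2:176090146-176092026 in shE2F1 (fold 3.15, −log10 q 2.05), and the gene body itself was free of peaks in both. HOXD10 had the strongest HOXD peak of control shRNA on its promoter, at chr2:176116956-176118329 (fold 3.56, −log10 q 2.65). No shE2F1 peak reached that promoter, although the upstream part of the gene stayed under peaks and body cover was 34.6% and 20.6%. HOXD12 had 20.8% of its body under a control shRNA peak and none in shE2F1.

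HOXB13, the gene of prostate and hindgut that lies apart from the rest of HOXB, had a promoter peak in both libraries, but at different positions. In control shRNA a short peak spanned the TSS at chr17:48728593-48728815 (fold 2.91, −log10 q 1.55), and in shE2F1 the peak lay upstream at chr17:48729441-48731070 (fold 2.87, −log10 q 1.73). HOXB7 was called through an upstream TSS at peaks of nearly the same bounds, chr17:48630479-48633076 in control shRNA (fold 2.96, −log10 q 1.65) and chr17:48630487-48632932 in shE2F1 (fold 3.07, −log10 q 2.09). In HOXA, where HOXA9 and HOXA10 are the genes best known from leukaemia, a control shRNA peak at chr7:27171460-27171978 (fold 2.75, −log10 q 1.31) touched promoters of both genes. The shE2F1 peak chr7:27171922-27172160 (fold 2.55, −log10 q 1.13) overlapped it by 0.057 kb and touched a promoter of HOXA10 alone. Their edges decided that HOXA9 counts as called only in control shRNA. The strongest shE2F1 peak of HOXA lay upstream of HOXA11 at chr7:27189690-27190182 (fold 2.71).

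HOX genes have fewer annotated TSSs than genes in general, with a median of 2 (1 to 12) against 5, which gives them fewer windows in which a peak can be counted. With the canonical TSS alone, 7 HOX genes were called in each library, against 21.5% of all genes in control shRNA and 45.02% in shE2F1. The mean cover of these windows was 4.09% and 5.34% for HOX genes and 8.21% and 16.8% for all genes. HOXB13, HOXC4, HOXC11, HOXC12, HOXC13 and HOXD13 were called in both, HOXD10 in control shRNA alone and HOXC6 in shE2F1 alone.

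Whole clusters showed more than promoters did, because much of the H3K27me3 lay between the genes and beyond the cluster ends. Each cluster was taken from its first to its last gene with 20 kb on each side. HOXC was the most covered, with 28.2% of its 157 kb under 28 peaks in control shRNA and 30.4% under 28 peaks in shE2F1. HOXB was covered over 13.2% of its 240.2 kb in each library, under 24 and 23 peaks. HOXD was covered over 7.69% of 138 kb under 7 peaks and over 5.98% under 8. HOXA was almost without the mark, at 0.353% of 147 kb under 1 peak and 0.498% under 2. These shares compare with 4.92% and 6.14% of the genome, so HOXC and HOXB stood above the genome in both libraries, HOXA stood below it, and HOXD lay above it in control shRNA and just below it in shE2F1.

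**Figure D3:**
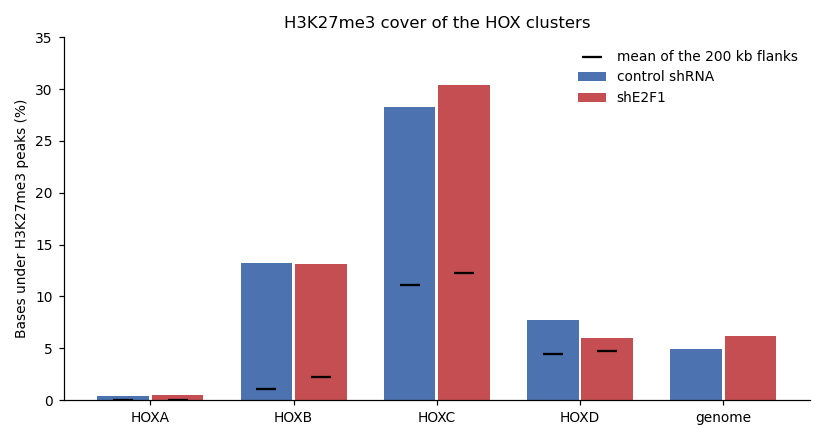
Percent of bases under H3K27me3 peaks (y axis) in each HOX cluster with 20 kb on each side and in the genome (x axis), for control shRNA and shE2F1, with a short black line at the mean of the 200 kb flanks on the left and right. HOXC reaches 28.2% and 30.4% and HOXA stays under 0.5% in both libraries.

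The marked stretch of HOXC continued outward, whereas HOXA lay in an unmarked region. In the 200 kb to the left and right of HOXC, cover was 10.9% and 11.2% in control shRNA and 13.3% and 11.2% in shE2F1. No peak of either library was present in the 200 kb on either side of HOXA. The left flank of HOXB was also at 0 in both libraries, and its right flank, past HOXB13, was at 2.09% and 4.44%. At HOXD the left flank, past HOXD13, was at 8.53% and 9.03%, and the right flank, past HOXD1, was at 0.424% and 0.427%. Of the flanks of HOXB and HOXD, only the one past HOXD13 stood above the cover of the genome, while the one past HOXB13 stood below it in both libraries and was more covered in shE2F1.

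Over all 4 clusters, 12.8% of 683 kb was covered in control shRNA under 60 peaks and 12.9% in shE2F1 under 61 peaks. Of this, 51.6 kb was covered under both hairpins, or 59.1% of what control shRNA covered and 58.4% of what shE2F1 covered, against 61.0% and 48.9% over the genome. Of the HOX peaks, 43 of 60 in control shRNA (71.7%) were overlapped by a shE2F1 peak and 39 of 61 in shE2F1 (63.9%) by a control shRNA peak, against 67.5% and 56.5% of all peaks. The exchange of peaks between the hairpins was therefore of about the size seen in the lists at large, and with 1 library per hairpin it cannot be told apart from the variation between any pair of libraries. The near-equal cover held at the authors' threshold. Where −log10 q had to reach 2, cover was 7.80% in control shRNA and 3.89% in shE2F1.

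HOX peaks were of ordinary strength and somewhat wider than most. Their median fold was 3.12 in control shRNA and 2.89 in shE2F1, against 3.17 and 2.95 for all peaks. The median −log10 q was 1.73 and 1.61 against 1.68 and 1.53, and none of the HOX peaks reached a −log10 q of 5, the highest being 3.50 and 4.15. A −log10 q of at least 2 was reached by 35% of HOX peaks in control shRNA and 24.6% in shE2F1, against 26.1% and 18.6% of all peaks. The median width was 1115 bp and 1011 bp, against 722 bp and 811 bp.

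Long peaks were found in HOXB and HOXC alone. The longest was chr17:48701081-48708343 in control shRNA (7263 bp, fold 3.64), the strongest control shRNA peak of HOXB, between HOXB9 and HOXB13 at an exon of the long non-coding RNA gene LINC02086. It was matched in shE2F1 by chr17:48701011-48706957 (5947 bp, fold 3.09), so this block was present under both hairpins with nearly the same left edge. The shE2F1 peak of HOXB with the highest fold was a short one in an exon of LINC03057 at chr17:48639120-48639419 (fold 3.15, −log10 q 1.95). The peak chr17:48628268-48629653, upstream of HOXB9, had nearly the same fold (3.15) and a higher −log10 q of 2.19. Upstream of HOXC13, chr12:53925619-53932047 spanned 6429 bp in control shRNA. Downstream of HOXC4, chr12:54057440-54063579 spanned 6140 bp in shE2F1. The remaining peaks over 5 kb were the pair of control shRNA peaks at HOXC4.

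Several of the 20 kb margins were under peaks for a larger share than most gene bodies. The 20 kb beyond HOXB13 were under peaks for 46.7% in control shRNA and 55.5% in shE2F1. The 20 kb beyond HOXC13 stood at 49.3% and 46.0%, and the 20 kb beyond HOXC4, at the opposite end of HOXC, at 43.8% and 51.8%. The 20 kb beyond HOXD13 stood at 30.0% and 29.8%. In that margin the strongest shE2F1 peak of HOXD lay between genes at chr2:176072266-176073312 (fold 3.40). The margins of HOXA, the anterior margin of HOXB and the anterior margin of HOXD were at 0 in both libraries. Each margin was thus either marked under both hairpins or free of peaks under both.

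Long stretches of the clusters had no H3K27me3 peak in either library. The longest was in HOXA, where the first 98.5 kb of the window held no such peak and 1 GSK126 E2F1 summit. In HOXB the first 90.1 kb of the window, with the canonical TSSs of the 5 genes from HOXB1 to HOXB5, were free of peaks, and in HOXD the last 92.6 kb, with HOXD1, HOXD3, HOXD4, HOXD8 and HOXD9. In HOXC the longest free stretch was 17.5 kb around HOXC8. The boundary in HOXB depended on the library. In control shRNA alone the free stretch reached 120 kb and 9 genes, and in shE2F1 it was ended by a weak peak inside HOXB6 and HOXB3 at chr17:48598578-48599820 (fold 2.51). A stretch without a peak is a stretch below the authors' calling threshold, which does not show that the mark is absent.

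**Figure D4:**
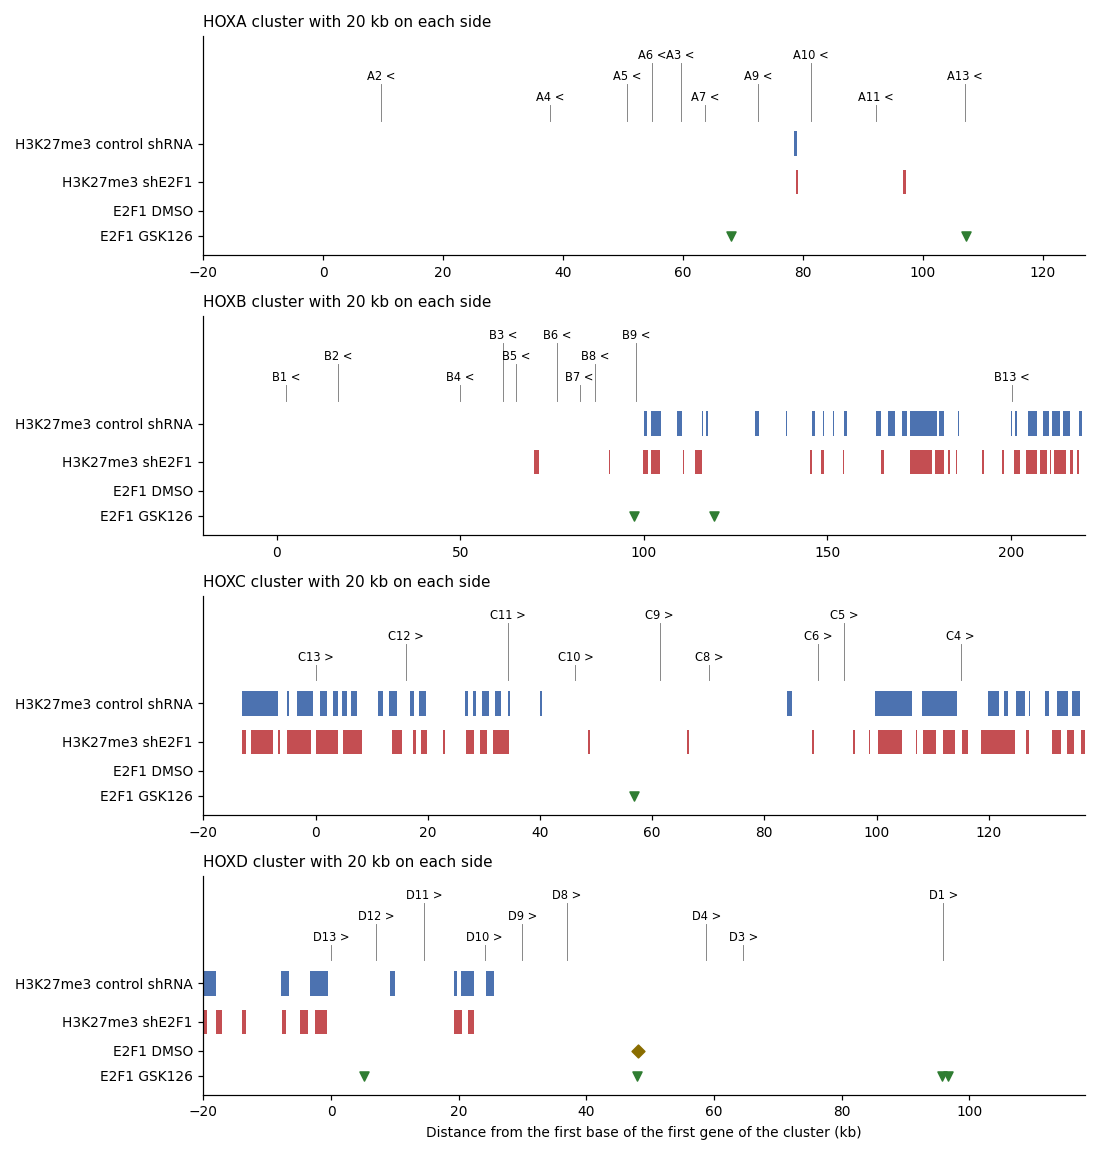
Map of each HOX cluster with 20 kb on each side, by distance in kb from the first base of its first gene (x axis), with all HOX genes but 1 marked at the canonical TSS and the sign < or > giving the direction of transcription. Blue and red bars are H3K27me3 peaks in control shRNA and shE2F1, the diamond is the DMSO E2F1 summit and triangles are GSK126 E2F1 summits, and the bars gather at the posterior ends of HOXB and HOXD and at both ends of HOXC, with 1 and 2 bars in HOXA.

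E2F1 was nearly absent from the HOX clusters except after GSK126. No HOX promoter had an E2F1 summit without treatment, against 5.85% of all protein-coding genes, and none had a summit in DMSO, against 33.5%. The exact interval for 0 of 39 reaches 9.03%. In GSK126 the promoters of 5 of 39 HOX genes held a summit (12.8%, 4.297% to 27.4%), against 51.5% of all genes. The 5 genes were HOXA13, HOXB9, HOXC6, HOXC9 and HOXD1, and at all of them GSK126 was the only library with a summit, as it was for 18.6% of all genes. The remaining 34 HOX genes had no summit in any library, which is 87.2% (72.6% to 95.7%) against 47.7% of all genes. None of the 39 was called in all 3 libraries, against 5.71% of all genes, or in both drug libraries without an untreated summit, against 27%.

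Counted over the whole clusters there were no untreated peaks, 1 DMSO peak and 9 GSK126 peaks. Per 100 kb this is 0, 0.146 and 1.32 peaks, against 0.0363, 0.539 and 0.490 over the genome. By these rates the HOX clusters were below the genome in DMSO, on 1 peak, and above it in GSK126, on 9 peaks. With so few peaks, no difference from the genome is read from the untreated and DMSO rates. The genome rate is over all bases outside gaps and not over gene clusters. At promoters the HOX share in GSK126 was below that of all genes, at 12.8% against 51.5%. Of the 9 GSK126 peaks, 8 had no overlapping DMSO peak, whereas 49.8% of all 14276 GSK126 peaks had none. Their median fold was 6.31 against 6.33 for all GSK126 peaks, and the local background under them was 3.01 times the lowest of the library, against 2.11 times for all peaks.

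The strongest HOX site was in an intron of HOXD3, an anterior gene, and it was the only one called in both drug libraries. In DMSO the peak was chr2:176140618-176140990 (fold 7.81, −log10 q 26.7), from 50 fragments at the summit over a background of 5.53. In GSK126 it was chr2:176140579-176141212 (fold 13.2, −log10 q 57.3), from 74 fragments over a background of 4.66. The summits lay 3813 bp and 3785 bp downstream of the nearest HOXD3 TSS. Fold in GSK126 over fold in DMSO gave a log2 ratio of 0.76, near the median of 0.70 over the 7385 DMSO peaks shared between the lists. The log2 ratio of fragments scaled to depth was 0.66, with a counting interval of 0.13 to 1.21. The difference at HOXD3 was thus of the size shared sites showed in general.

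For the other 8 GSK126 peaks the HOX gene with the nearest TSS was posterior or central, except at HOXD1. Most HOX genes are of these kinds, with 16 posterior, 15 central and 8 anterior genes, so no preference is read from this. The peaks nearest to HOXB7, HOXA7 and HOXD12 lay outside HOX promoters. At HOXB9 the peak chr17:48625238-48626171 (fold 7.69, −log10 q 24.9, 46 fragments) lay in its coding exon, 467 bp downstream of the TSS. At HOXA13 the peak chr7:27200035-27200582 (fold 6.96, −log10 q 13.74, 26 fragments) lay 111 bp upstream of the TSS, in an intron of the non-coding RNA gene HOTTIP. At HOXC9 the peak chr12:53995551-53995857 (fold 6.63, −log10 q 15.2, 31 fragments) lay in introns of HOXC9 and HOXC6, 140 bp downstream of a TSS, and it put both genes on the list. HOXA13, which shapes the digits and the urogenital tract, had the summit closest to a HOX TSS.

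HOXD1 had a pair of GSK126 peaks. The weaker, chr2:176188424-176188828 (fold 2.72, −log10 q 2.14, 17 fragments), lay 176 bp upstream of the TSS in an exon of the non-coding RNA gene HAGLR. The stronger, chr2:176189131-176189674 (fold 4.91, −log10 q 10.3, 29 fragments), lay in the coding exon, 709 bp downstream. The remaining peaks were away from HOX promoters. At chr17:48647248-48647786 (fold 6.31, −log10 q 19.9, 44 fragments) the summit was 13933 bp upstream of HOXB7 in an intron of LINC02086. This summit lay at promoters of the long non-coding RNA genes LINC02086 and LINC03057. At chr7:27160813-27161141 (fold 4.18, −log10 q 8.97, 31 fragments) it was between genes, 3134 bp upstream of HOXA7. At chr2:176097543-176097984 (fold 3.19, −log10 q 4.66, 25 fragments) it was between genes, 1969 bp upstream of HOXD12.

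The fragment numbers were set beside those of the DMSO list, although they cannot decide whether DMSO could have shown these sites. When the 9 GSK126 summits were scaled to the depth of DMSO, they held 18.2 to 79.2 fragments. In the DMSO list, the fewest fragments of any peak with a background within 5% of theirs were 12 to 21. The scaled number was above that minimum at all 9 sites, with 49.2 against 17 at HOXB9, 26.7 against 21 at HOXD12 and 18.2 against 17 at the upstream HOXD1 peak. The 9 sites were chosen because GSK126 called them. The lowest background was 1.70 fragments in GSK126 and 1.82 in DMSO, and the fewest summit fragments were 9 in both lists. Passing the DMSO minimum was thus largely fixed by that choice, and the share of all GSK126 peaks that pass is not given here. Scaling by depth also leaves out that fold was higher in GSK126 at shared sites in general. Divided also by their median ratio, an alternative chosen after seeing the data, the number stayed above the minimum at 7 of the 9 sites, with 30.3 at HOXB9, and fell to 16.5 at HOXD12 and 11.2 at the upstream HOXD1 peak, below it. Outside the HOXD3 site no DMSO value exists in the lists, so the size of the difference cannot be given, and with 1 library per treatment it has no replicate check.

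**Figure D5:**
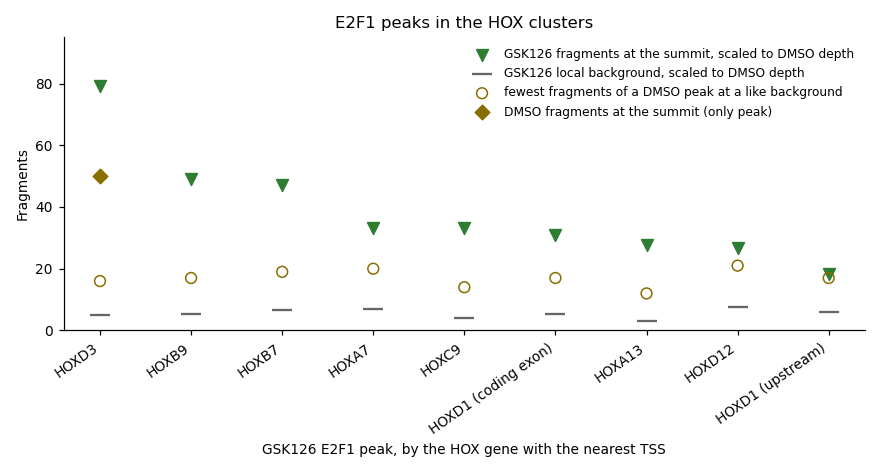
Fragments, with GSK126 values scaled to the depth of DMSO (y axis), at each of the 9 GSK126 E2F1 peaks in the HOX clusters, by the HOX gene with the nearest TSS (x axis), with triangles for the summit, grey lines for the local background, open circles for the fewest fragments of a DMSO peak at a like background and a diamond for the DMSO summit at HOXD3. The scaled GSK126 summits, from 18.2 to 79.2 fragments, lie above the open circles, by the least at the upstream HOXD1 peak, where the circle is at 17. The sites were chosen as GSK126 peaks, so this position was largely fixed in advance.

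The sequence around the summits was read from hg38 to show which HOX sites hold an E2F motif and which do not. The motif was searched in the form TTCCCGC, the form TTCGCGC, the form TTGCCGC and the form TTGGCGC, on either strand, within 100 bp of the summit. It was found at 3 of the 9 GSK126 peaks in the clusters, while it was present at 54.5% of all untreated, 17.5% of all DMSO and 26.9% of all GSK126 peaks. The centre of the motif nearest to the GSK126 summit lay at −6 bp for HOXD3, 2 bp for the site upstream of HOXB7 and 66 bp for HOXC9. The HOXC9 stretch shown therefore leaves out the summit. Capitals mark the motif in these stretches of the plus strand, at chr2:176140722-176140750 for the HOXD3 site, chr17:48647493-48647521 for the site upstream of HOXB7 and chr12:53995701-53995729 for the HOXC9 site, where it lies on the minus strand.
HOXD3 intron: ccgctcctcccTTCCCGCgcactctacct
upstream of HOXB7: agcccagcgacTTCCCGCcatcctcggcc
HOXC9 and HOXC6: cgggggcgccgGCGGGAAtgcaggcccgg

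The HOXB9 and HOXA13 peaks, whose fold was above that of the HOXB7 and HOXC9 sites, had no match, and neither had the peaks near HOXA7, HOXD12 and HOXD1. The HOXB9 and HOXA13 summits are shown in lower case, from chr17:48625877-48625905 and chr7:27200188-27200216, plus strand.
HOXB9 coding exon: ctgtttgagcagctccccaggcgcgccca
upstream of HOXA13: ccgcggggtcgcgccaggcggccgcccat

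Around TSSs the motif was sparse. From 250 bp upstream to 50 bp downstream of the canonical TSS, 4 of 39 HOX genes held it (10.3%, 2.87% to 24.2%), against 17.1% of all protein-coding genes in windows of the same 300 bp. They were HOXA5, HOXD3, HOXD8 and HOXD13, and none of them had an E2F1 summit at a promoter. The median GC content of the windows was 55.3% for HOX genes and 63.7% for all genes. A match to these letters is a description of the sequence only.

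No E2F1 peak of the clusters coincided with H3K27me3. None of the 9 GSK126 E2F1 peaks overlapped an H3K27me3 peak of either hairpin, whereas 43% of all GSK126 peaks did. Peaks of either hairpin covered 18.2% of the clusters, so few of 9 sites would overlap one by position alone, and no avoidance is read from this. The nearest was the site upstream of HOXB7, at 1137 bp from a control shRNA peak and 2769 bp from a shE2F1 peak, followed by HOXB9 at 2518 bp and 2096 bp. The farthest was the upstream HOXD1 peak, at 36682 bp and 41064 bp, inside the 92.6 kb of HOXD that had no H3K27me3 peak and held 3 GSK126 summits. HOXC6 was the only HOX gene with both kinds of promoter peak, at different TSSs, which is 2.56% (0.0649% to 13.5%) against 31% of all genes. Only 5 HOX genes had an E2F1 promoter peak and 12 had an H3K27me3 promoter peak, so few genes with both could arise. No peak of any of the 5 lists was at the promoter of 23 HOX genes, which is 59.0% (42.1% to 74.4%) against 26.1% of all genes. The marks come from cells under different treatments, so these are side by side counts and not measures of the same cells.

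The clusters also hold non-coding genes, several of which are known regulators of HOX genes. Of 31 long non-coding RNA genes, 7 had an H3K27me3 peak at a promoter in control shRNA and 7 in shE2F1, against 18.6% and 27.3% of all 18756 such genes, and 5 had an E2F1 summit in GSK126, against 15.5%. None had a summit in untreated cells or DMSO, against 1.39% and 10.3%. HOTAIR overlaps the start of HOXC11 on the opposite strand and has been tied to Polycomb silencing in trans. It had promoter peaks with folds of up to 3.33 in control shRNA and 3.23 in shE2F1. The strongest of these are the peaks described at the HOXC11 promoter. LINC02086 stood at 3.64 and 3.09 for H3K27me3 and at 6.31 for E2F1 in GSK126. LINC03057, whose 5′ end overlaps that of LINC02086 on the opposite strand, stood at 2.96 and 3.15 for H3K27me3 and shared the E2F1 peak. For both genes these H3K27me3 peaks lay apart from the E2F1 peak, those of LINC02086 being the long pair at chr17:48701081-48708343 and chr17:48701011-48706957. HOTTIP, on the opposite strand at HOXA13, had only the E2F1 peak, with a fold of 6.96. HAGLR, on the opposite strand at HOXD1, had a fold of up to 4.91, and HOXC-AS2 a fold of 6.63. The E2F1 peaks of HOTTIP, HAGLR and HOXC-AS2 are the ones described at HOXA13, HOXD1 and HOXC9, since those promoters overlap.

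Among the microRNA genes of the clusters, copies that make the same RNA differed in their peak calls, which does not show that the mark is absent where none was called. MIR196A1 in HOXB lay under the HOXB7 peak in both H3K27me3 libraries, with folds of 2.96 and 3.07. MIR196A2 in HOXC makes the same mature RNA and had no peak in any library, and neither had MIR196B in HOXA, whose RNA shares the seed. MIR615 in HOXC had a peak in shE2F1 only (fold 2.58), and MIR7704, next to HOXD1, had the pair of E2F1 peaks in GSK126. MIR10A, MIR10B and MIR3185 had none. Capitals mark the seed, bases 2 to 8, in mature sequences of RefSeq on GRCh38.p14, shown because the first pair shares it.
hsa-miR-196a-5p: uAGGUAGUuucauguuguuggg
hsa-miR-196b-5p: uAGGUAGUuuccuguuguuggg
hsa-miR-615-3p: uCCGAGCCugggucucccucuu
hsa-miR-7704: cGGGGUCGgcggcgacgug

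For homeobox genes outside the clusters the counts were as follows. Of 21 such genes, among them neighbours and relatives of the clusters, 9 had an H3K27me3 promoter peak in control shRNA and 11 in shE2F1, with 8 in both, against 27.1%, 51.2% and 25.2% of all genes, so that the shE2F1 count was near the share of all genes. E2F1 summits were at 0 of them without treatment, 1 with DMSO and 4 with GSK126, against 5.85%, 33.5% and 51.5%. DLX4 had folds of 3.76 and 3.31 for H3K27me3 and 5.97 for E2F1 in GSK126, MNX1 had an E2F1 fold of 2.66 in DMSO and 5.23 in GSK126, EN2 had 4.62 in GSK126 and DLX3 had 3.94. EVX2, the homeobox gene next to HOXD13, had a weak H3K27me3 peak at its promoter in control shRNA (fold 2.71) and one in a UTR exon, outside the promoter, in shE2F1 (fold 2.39).

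Genes that act with HOX proteins or on HOX chromatin were counted in the same way. Of 9 genes for the TALE homeodomain cofactors, which bind DNA together with HOX proteins, 4 had an H3K27me3 peak in each library, and 0, 2 and 6 had an E2F1 summit in untreated, DMSO and GSK126 cells. Among all genes these shares were 27.1% and 51.2% for H3K27me3 and 5.85%, 33.5% and 51.5% for E2F1. With only 9 cofactor genes, no difference from these shares is read from the counts. The E2F1 fold in GSK126 was 19.4 at PKNOX1, 9.97 at PBX4 and 9.83 at MEIS2. Of 27 genes for Polycomb and Trithorax proteins and other regulators of HOX chromatin, 7, 19 and 24 had an E2F1 summit, and 9 and 21 had an H3K27me3 peak in control shRNA and shE2F1, beside the same shares of all genes. EZH2 itself had E2F1 folds of 31.3 without treatment, 48.7 with DMSO and 96.0 with GSK126. RBBP4 and EED, which work in the same complex, stood at 34.3 and 30.5 in GSK126, and the insulator protein gene CTCF at 33.5. The EZH2 promoter thus had a summit in each E2F1 library, whereas HOX promoters had summits in GSK126 alone. Why they differ was not tested.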

How the data were processed

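ChIP-seq of MDA-MB-231 cells was analysed from the 5 deposited peak lists. The authors fragmented chromatin by sonication for E2F1 and with micrococcal nuclease for H3K27me3. According to the submitters' processing notes and the study's methods, reads were checked with FastQC 0.11.5, trimmed with cutadapt 4.5, filtered with Picard and SAMtools, aligned to GRCh38 with Bowtie2 2.5.2, and peaks were called per library with MACS2 2.2.9.1, narrow for E2F1 and broad for H3K27me3. The authors' lists give the fold enrichment as a ratio to local background, at the summit of narrow and averaged over broad peaks. They also hold the authors' −log10 p-value and −log10 q-value. The deposited score and further columns were not used, except the summit offset.

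Promoters were 1000 bp on each side of any GENCODE release 44 TSS of a gene. An H3K27me3 peak was counted from 1 bp of overlap and an E2F1 peak by its summit. Summit fragments and background were solved from fold, with a pseudocount of 1, and the Poisson p-value, and all narrow peaks were solved within a relative error of 2e-05. Shares carry exact Clopper-Pearson 95% intervals. No test between conditions was made, because each had 1 library. Sequences were read from hg38, and mature microRNAs came from RefSeq. Scripts ran in Python 3.11.15 with numpy 2.4.6, scipy 1.17.1, pandas 2.3.3, pysam 0.24.0 and matplotlib 3.10.9, and were tested on simulated data.

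The members and gene lists were chosen with earlier results of these data known. Values were given for HOX genes with a promoter peak (up to 10 of each H3K27me3 kind and 15 for E2F1), the highest-fold peak of each cluster and library, up to 4 genes per list by fold and up to 6 non-coding genes by fold. Further features (HOXD12, EVX2, HOTAIR, microRNAs and long peaks) were named after their values were seen. Some single genes are not reported here, and they are left out of the gene labels in the figures. Alternatives in the peak threshold, TSS choice, promoter width, overlap rule and cluster margin were run, and 1 on the scaling of GSK126 fragments was added after seeing the data.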

Additional observations from a re-analysis of the deposited data

How the results depend on the processing

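The HOX counts of H3K27me3 depended on the peak threshold and the overlap rule. In control shRNA the 10 HOX promoters became 5 where −log10 q had to reach 2, 0 where it had to reach 5 and 3 when the midpoint of a peak had to lie in the promoter. In shE2F1 the 10 became 4, 0 and 3. The shares of all protein-coding genes were then 14.6% and 28.9% under the limit of 2, 2.604% and 9.19% under the limit of 5, and 23.2% and 46.4% by the midpoint rule. Cluster cover fell to 7.80% in control shRNA and 3.89% in shE2F1 under the limit of 2, so it was no longer alike under the hairpins. It fell to 0 in both under the limit of 5, and without the 20 kb margins to 10.2% and 9.90%. Genome cover under these limits is not given here. With 1 TSS per gene, E2F1 in GSK126 was left at 3 HOX promoters, against 47.9% of all genes, since the HOXC9 peak is not at a canonical TSS. These 13 values moved, and 29 others did not. A count was held to have moved when it changed by over 1.5 times, and cover when it left its exact 95% binomial interval over bases, which is narrow because bases are not independent. Those that did not move include the 0 of untreated cells and DMSO at HOX promoters, at every alternative run. Several of the unmoved values could not have moved, so their number is no measure of stability. A stricter setting cannot lower a count of 0, and only wider promoters or counting any overlap could have raised it. All E2F1 peaks already had a −log10 q of at least 2, so that limit removed none. Why the other values moved was not tested beyond the construction of each alternative. No paired analysis was possible because each condition has 1 library. Depth limits the untreated E2F1 list most, and no count of fragments is available here for the H3K27me3 lists.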
